A study of Saccharomyces cerevisiae with 24 samples.

Results

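The data described here are the expression values of 4 yeast strains after 20 min of heat shock, read as a test of whether the double deletion of PBF1 and PBF2 changed each gene by more or by less than the single deletions added together. The members are the 12 arrays taken at 20 min, of 24 arrays in all, and are picked out by time point, a rule that uses no measured value, although the comparison itself was chosen with earlier results of these data known. Each strain gave 3 arrays at 20 min, from cultures grown in triplicate at 25 °C, of which a part was moved to 37 °C and a part was collected at 0 min. The groups at 20 min were the double mutant delta-pbf1 delta-pbf2, the single mutants delta-pbf1 and delta-pbf2, and the reference strain BY4741. The other 12 arrays hold the same 4 strains before the shift, at 0 min. BY4741 is a haploid laboratory strain of mating type a that lacks working HIS3, LEU2, MET17 and URA3 genes. The titles of the mutants name no parent strain, so a background shared with BY4741 is assumed here, and URA3 differed in the double mutant (below). The labels do not say whether a mutant strain was 1 clone. Total RNA (5 ug) was hybridised to the Affymetrix Yeast 2.0 array, and the values are linear signals, written here without a unit.

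PBF1 and PBF2 are now named TOD6 (YBL054W) and DOT6 (YER088C). They encode a pair of related Myb-type DNA-binding proteins that recognise the PAC element, a short motif in the promoters of many genes for ribosome assembly, and that recruit the Rpd3 histone deacetylase complex to repress them when growth conditions worsen. Ribosome biogenesis genes are a large set in yeast whose products transcribe, cut, modify and fold ribosomal RNA and join it to ribosomal proteins, and their transcripts drop soon after a heat shock. The question asked of these arrays is how far either repressor covers for the loss of the other. For each gene the departure was computed on the log2 scale as the double mutant minus delta-pbf1 minus delta-pbf2 plus BY4741. A departure of 0 means that the effects of the singles, added as log2 differences from BY4741, equal the effect of the double. A positive departure means a higher signal in the double than that sum, and a negative one a lower signal.

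The deleted genes were read first, as a check of the labels. TOD6 gave 0.47, 2.46 and 3.72 in the double mutant, 1.23, 2.19 and 0.413 in delta-pbf1, 307, 185 and 219 in delta-pbf2, and 303, 126 and 112 in BY4741. It was not above background on any array of the double mutant or delta-pbf1, and BY4741 was at least 15.7-fold higher than the double mutant and at least 15.5-fold higher than delta-pbf1. DOT6 gave 6.10, 8.10 and 6.69 in the double mutant, 991, 994 and 988 in delta-pbf1, 1.87, 6.61 and 3.45 in delta-pbf2, and 953, 826 and 894 in BY4741. BY4741 was at least 86.1-fold higher than the double mutant and at least 98.0-fold higher than delta-pbf2, so both genes fit their labels on all 12 arrays. These bounds set the bright group's mean against the 95th percentile, per array, of probe sets that matched no RefSeq gene of Saccharomyces cerevisiae. A group at background has only an upper limit, and the bounds hold at that percentile.

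URA3, the orotidine phosphate decarboxylase used as a selection marker, did not have the same level in all strains. It gave 846, 922 and 695 in the double mutant, against 6.90, 2.34 and 1.47 in delta-pbf1, 0.826, 5.85 and 0.693 in delta-pbf2, and 1.96, 0.750 and 1.03 in BY4741. The double mutant was at least 77.8-fold above delta-pbf1, at least 89.9-fold above delta-pbf2 and at least 82-fold above BY4741. URA3 was above background in the double mutant alone, and effects of this marker cannot be told apart from those of the double deletion in any contrast below. HIS3 lay between 1049 and 1574 on the 12 arrays, LEU2 was above background on 7 and MET17 on 6 of them. The a-cell genes MFA1, MFA2, STE2, STE6, AGA2 and BAR1 were above background on all 12 arrays and MF(ALPHA)1 on 0 of 12. These genes follow the pattern of mating type a, but the other alpha-cell genes listed were also above background on all 12. MF(ALPHA)2 lay between 9.28 and 31.9, STE3 between 61.7 and 124 and SAG1 between 114 and 214.

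The median signal of the 24 arrays lay between 453 and 572, and replicates of a group correlated at 0.980 or better on the log2 scale. The number of arrays, 3 in each group, limits the precision. At 20 min 5395 genes could be tested, and the departure passed an adjusted p of 0.05 in limma for 1477 of them, which is 27.4%. It was positive for 661 genes (12.3%) and negative for 816 (15.1%). At an unadjusted p under 0.05 the count was 2136. When arrays were centred on the hybridization controls in place of the deposited scaling, the split was 217 positive and 427 negative, so the share of positive calls depends on the scaling. With arrays set level on the spike-in controls instead, the median departure of all genes was 0.11 and limma made 1 positive and 0 negative calls, with 160 genes at an unadjusted p under 0.05. The 1 call was the marker URA3. Departures of at least the size of a doubling or a halving were found for 115 genes upward and 120 downward, and the median departure of all genes was -0.04.

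The genes with called departures differed mostly in the double mutant. For the 661 positive genes the median signal was 1017 in the double mutant, against 535 in delta-pbf1, 579 in delta-pbf2 and 511 in BY4741. Their median log2 difference from BY4741 was 0.56 in the double mutant, 0.02 in delta-pbf1 and 0.06 in delta-pbf2. For the 816 negative genes the median signal was 425 in the double mutant, 610 in delta-pbf1, 655 in delta-pbf2 and 625 in BY4741, with median differences from BY4741 of -0.54, -0.04 and 0.05 for the 3 mutants in that order. These contrasts share arrays with each other and with the departure, so the values are set side by side and carry no separate test. The same fit called 1130 genes higher and 1750 lower in the double mutant than in BY4741 (20.9% and 32.4%), 15 and 19 in delta-pbf1 (0.278% and 0.352%), and 466 and 249 in delta-pbf2 (8.64% and 4.62%). Compared with delta-pbf1, the double mutant was higher for 1075 and lower for 1511 genes (19.9% and 28%), and compared with delta-pbf2, higher for 1118 and lower for 1626 (20.7% and 30.1%). In the per-array view, the 3 double mutant arrays all lay above the other 9 arrays for 845 genes (15.7%) and all below them for 1286 genes (23.8%).

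**Figure D1:**
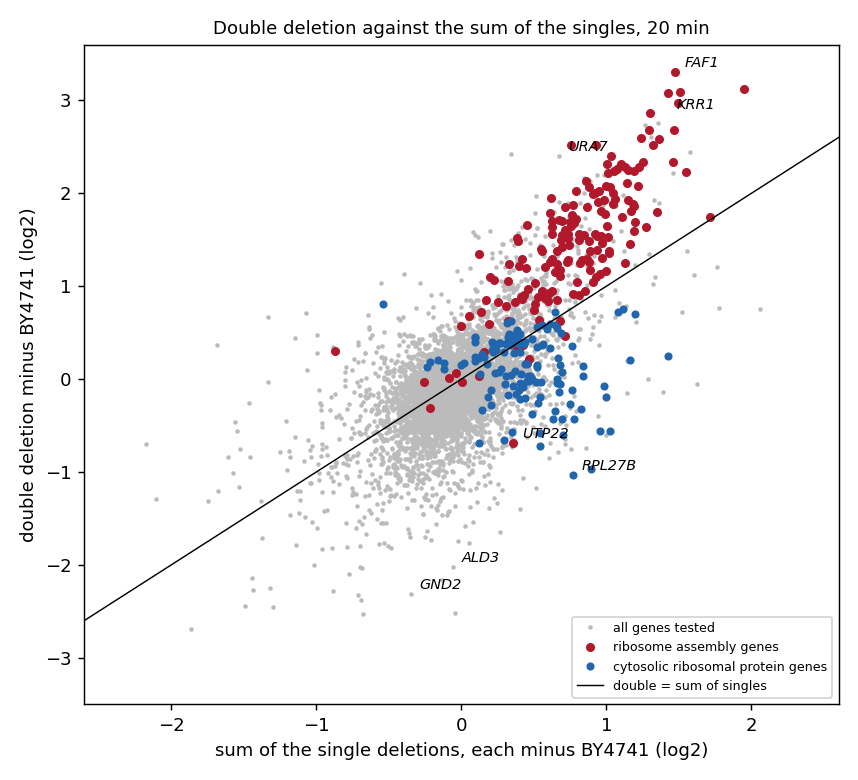
Each point is 1 gene at 20 min; the x axis is the sum of the log2 differences of delta-pbf1 and delta-pbf2 from BY4741, the y axis is the log2 difference of the double mutant from BY4741, and the diagonal marks a departure of 0. Red points are ribosome assembly genes, most of which lie above the diagonal (161 of 171), and blue points are cytosolic ribosomal protein genes, of which 40 of 127 do; both axes use the same BY4741 arrays, and 34 genes at background in at least 1 group are not drawn.

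Genes for ribosome assembly held many positive departures, 99 of the 661 over all genes. Of 171 members of 4 lists (the small subunit processome with snoRNP proteins, late 40S maturation, 60S assembly and RNA helicases), 99 had a positive departure and 1 a negative one, against 12.3% and 15.1% of all genes. Their median departure was 0.68, compared with -0.04 for all genes. The median of their log2 differences from BY4741 was 1.49 in the double mutant, 0.31 in delta-pbf1 and 0.48 in delta-pbf2, and the median of the sum of the singles was 0.77. The median signal of the 171 genes was 1064, 989 and 837 on the double mutant arrays, 487, 378 and 342 in delta-pbf1, 496, 411 and 429 in delta-pbf2, and 381, 294 and 263 in BY4741. All 3 double mutant arrays were thus above all others, the delta-pbf2 arrays were above all BY4741 arrays, and delta-pbf1 overlapped with both. In single genes, 144 of the 171 had all 3 double mutant arrays above the other 9, against 15.7% of all genes. With 1 of the 12 arrays left out in turn the positive count ranged from 80 to 120. It was 53 with hybridization control centring and 109 when the singles were added as linear signals. With spike-in centring 0 of the 171 genes were called, and their median departure was 0.83.

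The small subunit processome builds around the nascent pre-rRNA and makes the first cuts that release the 18S precursor. Of its 63 listed genes, 34 had a positive departure and 1 a negative one, with a median of 0.67. KRR1, a KH-domain protein of this particle, had signals of 1209, 1158 and 1172 in the double mutant, 191, 194 and 213 in delta-pbf1, 257, 262 and 264 in delta-pbf2, and 131, 151 and 136 in BY4741. No array of 1 strain overlapped with another strain, and the double mutant stood well above the rest. The sum of the singles gives 373 for KRR1, so that the double mutant was 3.16 times that value (departure 1.66 ± 0.11 SE, adjusted p = 4.81e-09 in limma). FAF1, whose product binds Krr1 in 40S assembly, had 858, 845 and 946 in the double mutant, 158, 123 and 125 in delta-pbf1, 163, 146 and 188 in delta-pbf2, and 104, 88.5 and 77.5 in BY4741. The 3 double mutant arrays were again far above the other 9, with a departure of 1.83 ± 0.16 SE (adjusted p = 9.17e-08). ENP2, another processome protein, had a departure of 1.57.

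UTP22 was the exception in this list. Its product belongs to the processome and to the CURI complex, which also holds the ribosomal protein gene activator Ifh1. It had 409, 367 and 234 in the double mutant, 590, 534 and 431 in delta-pbf1, 724, 720 and 647 in delta-pbf2, and 617, 556 and 430 in BY4741. The double mutant was the lowest strain, below all other arrays, and the departure was -1.05 ± 0.22 SE (adjusted p = 0.00161). BFR2, the member with the largest departure that did not pass, stood at 0.86 (adjusted p = 0.0760).

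Late 40S maturation factors act on the small subunit on its way to the cytoplasm. Of 18 listed genes 6 had a positive departure and none a negative one, with a median of 0.38, which was 0.54 without replicate 3 and 0.24 without replicate 1 of BY4741. DIM1, the enzyme that dimethylates 18S rRNA, had 753, 754 and 660 in the double mutant, 192, 118 and 126 in delta-pbf1, 224, 200 and 214 in delta-pbf2, and 134, 130 and 115 in BY4741. The double mutant was above every other array, and delta-pbf2 was above BY4741 on all its arrays (departure 1.59 ± 0.18 SE, adjusted p = 2.81e-06). LTV1, which accompanies the 40S precursor out of the nucleus, had a departure of 1.58, and TSR4, a chaperone of a 40S ribosomal protein, 1.11. TSR1 had 0.64 and did not pass (adjusted p = 0.0804).

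Of 71 genes for 60S assembly factors 43 had a positive departure and 0 a negative one, with a median of 0.73. RRP1, a factor of early large subunit assembly, had 1476, 1414 and 1294 in the double mutant, 363, 261 and 290 in delta-pbf1, 342, 318 and 323 in delta-pbf2, and 293, 237 and 204 in BY4741. Delta-pbf2 was above BY4741 on all its arrays, and delta-pbf1 overlapped with both. The double mutant stood apart from all 3 with a departure of 1.77 ± 0.17 SE (adjusted p = 2.94e-07). YVH1, the phosphatase that takes part in the exchange of Mrt4 for the stalk protein, departed by 1.48. REA1, the giant ATPase that remodels pre-60S particles, departed by 1.4 although the sum of its singles, 512, was near the BY4741 arrays, which read 327, 456 and 597. RSA4, a partner of Rea1, had 0.99 and did not pass (adjusted p = 0.0680).

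RNA helicases of both pathways had the highest median departure of the 31 lists, at 1.01, with 16 of 19 positive and 0 negative. ECM16 read 1183, 1142 and 995 in the double mutant, 302, 262 and 228 in delta-pbf1, 337, 338 and 342 in delta-pbf2, and 247, 203 and 181 in BY4741. Its 3 double mutant arrays were above all others, and delta-pbf2 was above BY4741 throughout (departure 1.37 ± 0.15 SE, adjusted p = 2.04e-06). DRS1 departed by 1.36 and HAS1 by 1.31. All 19 helicase genes had their double mutant arrays above the other 9, including DBP9, whose departure of 0.58 did not pass (adjusted p = 0.0655).

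**Figure D2:**
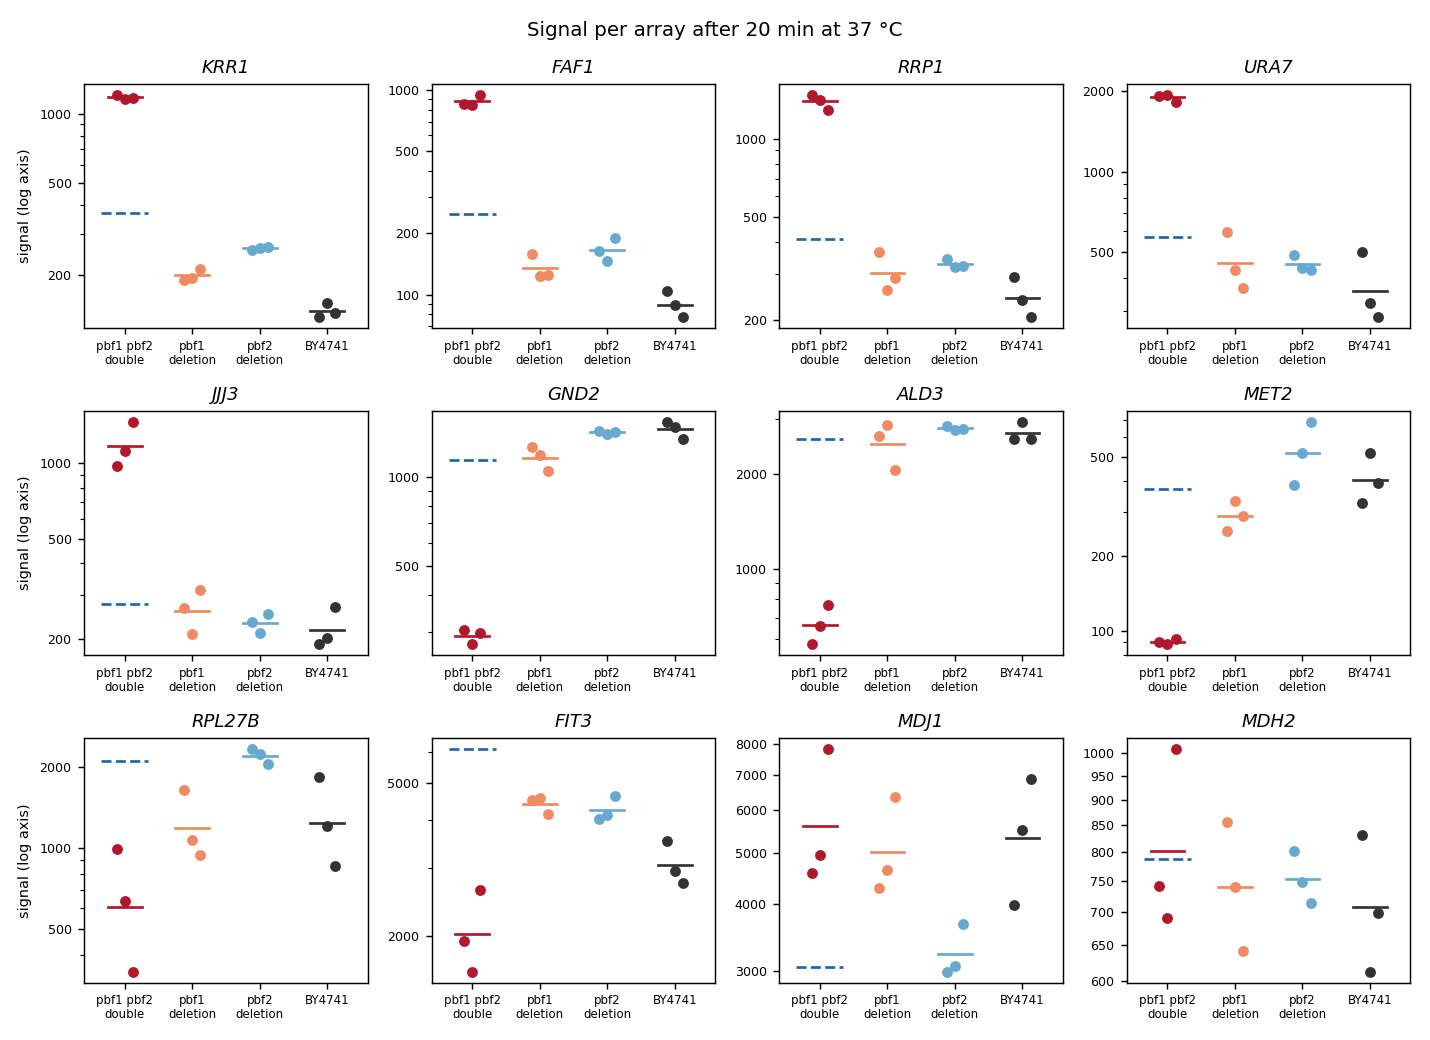
Signal of 12 genes on each of the 12 arrays at 20 min (log axis), with points for the arrays, bars for the mean of the log2 values of each strain and a dashed blue line at the value that the sum of the single deletions gives for the double mutant. KRR1, FAF1, RRP1, URA7 and JJJ3 lie above that line in the double mutant, GND2, ALD3, MET2, RPL27B and FIT3 below it, MDJ1 lies above it with a low delta-pbf2, and MDH2 lies on it at 20 min.

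Genes that make and handle other stable RNAs also held more positive than negative departures. Of 35 genes for RNA polymerases I and III 14 were positive and 1 negative, with a median of 0.32. RPC82, a polymerase III subunit, had 1188, 1050 and 1032 in the double mutant, 361, 349 and 289 in delta-pbf1, 451, 409 and 468 in delta-pbf2, and 343, 403 and 369 in BY4741. The single mutants and BY4741 were close, although delta-pbf2 was above BY4741 on all its arrays. The departure of 1.46 ± 0.13 SE (adjusted p = 1.07e-07) goes with a double mutant above all other arrays. RET1, the second largest subunit of polymerase III, departed by 0.88, and RRN11, of the polymerase I core factor, by 1.07 with a large SE of 0.40 (adjusted p = 0.0497). TFC7, a subunit of the assembly factor TFIIIC, was the negative member at -0.47.

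Among 17 genes of the nuclear exosome and the TRAMP complex, which trim and tag nuclear RNA, 6 were positive and 1 negative (median 0.39). LRP1, the exosome cofactor also called Rrp47, read 1154, 1012 and 985 in the double mutant, 273, 309 and 302 in delta-pbf1, 316, 376 and 322 in delta-pbf2, and 231, 251 and 205 in BY4741. Its departure was 1.27 ± 0.15 SE, and the TRAMP zinc-knuckle gene AIR1 departed by 1.08. PAP2, the TRAMP poly(A) polymerase, went the other way, with 184, 165 and 138 in the double mutant, 259, 305 and 279 in delta-pbf1, 288, 287 and 297 in delta-pbf2, and 308, 299 and 274 in BY4741. Its departure was -0.79 ± 0.14 SE (adjusted p = 4.68e-04), with the double mutant below all other arrays.

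Of 50 genes for tRNA modification and processing 22 were positive and 1 negative, with a median of 0.45. LHP1, the yeast La protein that binds the ends of new polymerase III transcripts, had 1807, 1671 and 1828 in the double mutant, 617, 551 and 600 in delta-pbf1, 705, 665 and 665 in delta-pbf2, and 538, 512 and 479 in BY4741. The 4 strains did not overlap, and the departure was 1.17 ± 0.08 SE (adjusted p = 6.29e-09). GCD10 and TRM11, subunits of tRNA methyltransferases, departed by 1.32 and 1.22, and the pseudouridine synthase gene PUS6 by -0.69. Of 20 tRNA synthetase genes 7 were positive and 1 negative, with a smaller median of 0.17: THS1 for threonine departed by 0.65, MES1 for methionine by 0.58 and KRS1 for lysine by 0.47, while CDC60 for leucine departed by -0.53. Of 35 translation factor genes 10 were positive and 2 negative (28.6% and 5.71%, against 12.3% and 15.1% of all genes), with a median of 0.06. With hybridization control centring 0 were called in either direction. DED1, a helicase of initiation, departed by 0.66, and SUP45, the release factor eRF1, by -0.44.

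Nuclear transport receptors were divided, with 4 of 19 positive and 6 negative (21.1% and 31.6%, against 12.3% and 15.1% of all genes). KAP123, the importin for many ribosomal proteins, had 2088, 1752 and 1627 in the double mutant, 544, 507 and 539 in delta-pbf1, 733, 806 and 843 in delta-pbf2, and 372, 416 and 385 in BY4741. Each strain had its own level, in the order double mutant, delta-pbf2, delta-pbf1, BY4741, and the departure was 0.75 ± 0.12 SE (adjusted p = 1.49e-04). KAP95, the importin beta gene, departed by 0.70 and GSP1, the yeast Ran, by 0.45. LOS1, the tRNA exporter, departed by -0.76 ± 0.13 SE, KAP120 by -0.75 and KAP114 by -0.51.

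**Figure D3:**
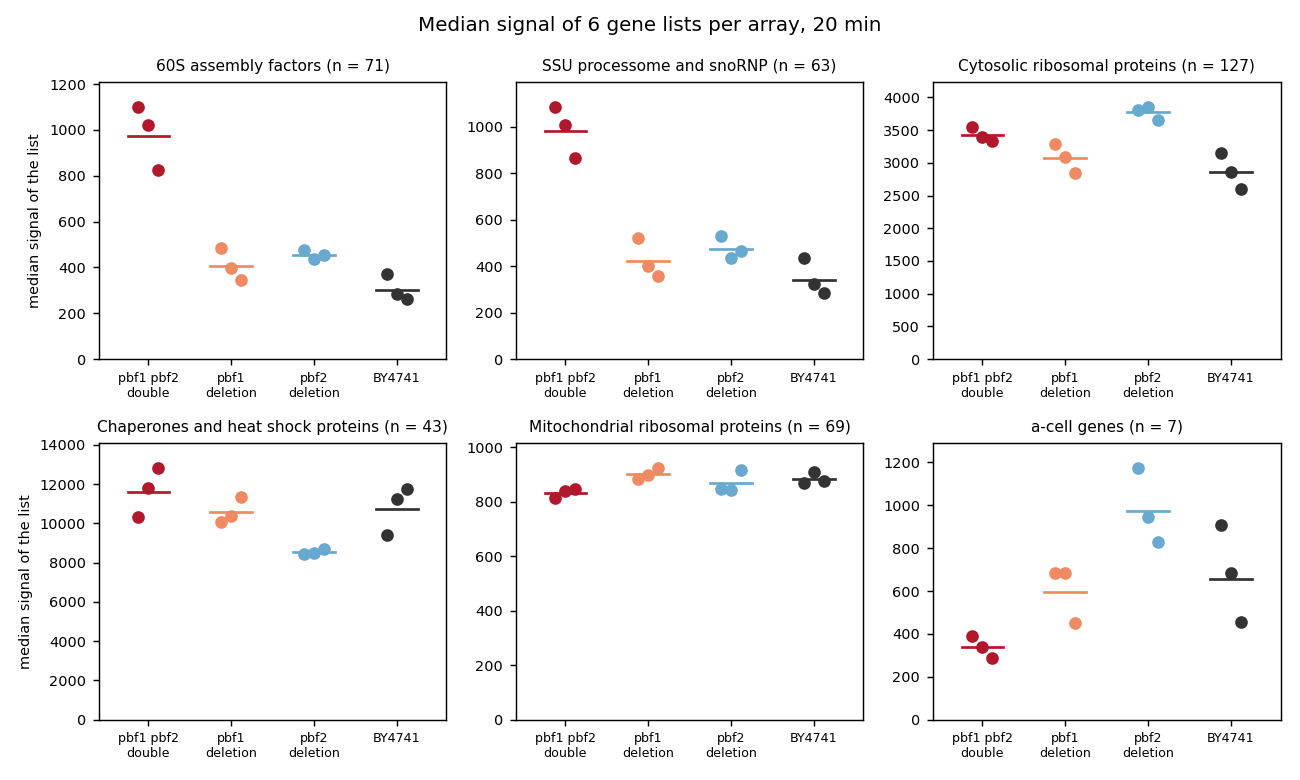
Median signal of 6 gene lists on each array at 20 min, with points for the 3 arrays of a strain and bars for the mean of their log2 values; the y axes start at 0. The 2 assembly lists shown are highest on all double mutant arrays, the cytosolic ribosomal protein genes are highest in delta-pbf2, chaperone genes are lowest in delta-pbf2 and a-cell genes are lowest in the double mutant.

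Genes of purine and pyrimidine synthesis, which supply the nucleotides for rRNA, gave 8 positive and 3 negative departures of 40 (median 0.12). The shares were 20% and 7.5%, against 12.3% and 15.1% of all genes. URA7, the main CTP synthase, had 1923, 1938 and 1823 in the double mutant, 596, 430 and 366 in delta-pbf1, 487, 437 and 430 in delta-pbf2, and 499, 324 and 285 in BY4741. The other 3 strains overlapped, and the departure was 1.73 ± 0.22 SE (adjusted p = 1.27e-05). GUA1, the GMP synthase, departed by 0.99 and URK1, the uridine kinase, by 0.70. URA10 departed by -0.78, RNR1, the large subunit of ribonucleotide reductase, by -0.54, and ADE4 by -0.37. URA7 and URA10 act in pyrimidine synthesis, as URA3 does, and the part of the URA3 marker in their values was not tested.

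Regulators of ribosome genes had 2 positive and 2 negative departures among 16. That is 12.5% each, near the 12.3% and 15.1% of all genes, so the list as a whole did not stand out. IFH1, an activator of ribosomal protein genes, departed by 0.49 and REB1, a general promoter-binding factor, by 0.52. UME1 and SIN3, both subunits of the Rpd3 deacetylase complex, departed by -0.50 and -0.26. SIN3 had 1422, 1438 and 1427 in the double mutant, 1625, 1775 and 1795 in delta-pbf1, 1613, 1818 and 1759 in delta-pbf2, and 1652, 1873 and 1720 in BY4741, so that the double mutant was below all other arrays by a small margin (adjusted p = 0.0265).

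Chaperone and heat shock protein genes showed another arrangement of the 4 strains. Of 43 genes 15 had a positive departure and 1 a negative one, with a median of 0.25, yet their median log2 difference from BY4741 was 0.05 in the double mutant, -0.03 in delta-pbf1 and -0.18 in delta-pbf2. MDJ1, a mitochondrial J-protein, read 4576, 4944 and 7818 in the double mutant, 4295, 4638 and 6363 in delta-pbf1, 2993, 3064 and 3674 in delta-pbf2, and 3991, 5504 and 6862 in BY4741. The double mutant overlapped with BY4741 and delta-pbf2 was below every other array, and the departure was 0.88 ± 0.26 SE (adjusted p = 0.0146). FES1, the nucleotide exchange factor of cytosolic Hsp70, departed by 0.69 in the same arrangement. CNS1, an Hsp90 cochaperone, had instead a high double mutant, with 1747, 1753 and 1766 there, 634, 565 and 619 in delta-pbf1, 752, 679 and 684 in delta-pbf2, and 559, 564 and 571 in BY4741 (departure 1.22 ± 0.12 SE, adjusted p = 7.18e-07). HSP31 departed by -0.57. The positive count was 5 with a median of 0.04 under quantile normalization, 3 with hybridization control centring, 9 without replicate 3 of BY4741 and 29 on the linear scale.

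Departures of genes for cytosolic ribosomal proteins were mostly opposite in sign to those of the assembly genes. Of 127 genes 48 had a negative departure and 6 a positive one, with a median of -0.28. Their median log2 difference from BY4741 was 0.16 in the double mutant, 0.06 in delta-pbf1 and 0.36 in delta-pbf2, and the sum of the singles had a median of 0.41. The list's median signal was 3555, 3396 and 3333 on the double mutant arrays, 3288, 3092 and 2850 in delta-pbf1, 3816, 3847 and 3661 in delta-pbf2, and 3157, 2860 and 2603 in BY4741. The double mutant thus lay above BY4741 and below delta-pbf2. Against delta-pbf2 the double mutant was lower for 57 of the 127 genes (30.1% of all genes) and higher for 21 (20.7%), and against BY4741 it was higher for 57 and lower for 14. All 3 double mutant arrays lay above the other 9 for 26 of the 127 genes (15.7% of all genes) and below them for 3 (23.8%).

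RPL27B had 992, 638 and 348 in the double mutant, 1642, 1072 and 944 in delta-pbf1, 2327, 2232 and 2042 in delta-pbf2, and 1827, 1202 and 861 in BY4741. The delta-pbf2 arrays were above all others, the double mutant overlapped with delta-pbf1 and BY4741, and replicate 1 was the highest in each strain (departure -1.80 ± 0.38 SE, adjusted p = 0.00150). RPL22B departed by -1.86 and RPS9B by -1.59 with wide spreads between replicates. RPL10, RPP0 and RPP2B had small positive departures of 0.37, 0.40 and 0.37. Many ribosomal protein genes are near-identical pairs, and a probe set may read both copies, which leaves single members uncertain. In 50 such pairs the B copy had the lower departure in 34, the A copy was negative in 19, the B copy in 26 and both in 10. The list's median ranged from -0.38 to -0.18 with 1 array left out, at BY4741 replicates 1 and 3, and on the linear scale 15 genes were negative and 2 positive.

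Negative departures were also found among metabolic and stress genes. Of 73 genes of the environmental stress response 17 had a negative departure and 1 a positive one, with a median of -0.14. These counts are 23.3% and 1.37%, against 15.1% and 12.3% of all genes. GND2, the minor 6-phosphogluconate dehydrogenase, had 305, 272 and 297 in the double mutant, 1269, 1186 and 1052 in delta-pbf1, 1429, 1403 and 1419 in delta-pbf2, and 1537, 1475 and 1345 in BY4741. The double mutant was far below the other 9 arrays, at 0.255 of the 1139 that the singles give (departure -1.97 ± 0.17 SE, adjusted p = 7.71e-08). ALD3, a cytosolic aldehyde dehydrogenase, had 576, 659 and 766 in the double mutant, 2639, 2859 and 2056 in delta-pbf1, 2843, 2760 and 2781 in delta-pbf2, and 2587, 2928 and 2578 in BY4741. The 3 other strains overlapped and the double mutant did not reach them (departure -1.97 ± 0.28 SE, adjusted p = 4.38e-05). SIP18, a desiccation-tolerance gene, departed by -1.61.

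In sulfur and methionine metabolism 10 of 32 genes were negative and 3 positive, with a median of -0.14. The shares were 31.25% and 9.4%, against 15.1% and 12.3% of all genes. MET2, the homoserine acetyltransferase, read 89.7, 88.0 and 92.8 in the double mutant, 252, 333 and 287 in delta-pbf1, 385, 518 and 689 in delta-pbf2, and 327, 519 and 390 in BY4741. Its double mutant arrays were tight and below the rest, with a departure of -2.03 ± 0.32 SE (adjusted p = 1.36e-04). MET28 and MET32, which encode DNA-binding regulators of this pathway, departed by -1.69 and -1.40, with double mutant signals of 37.1, 56.7 and 34.7 for MET28. The positive members HOM3, CYS3 and HOM2 had small departures of 0.46, 0.23 and 0.21. Other genes outside the lists that lay low in the double mutant were GAP1, the general amino acid permease, at -1.63 ± 0.17 SE, and MHT1, an S-methylmethionine-homocysteine methyltransferase, at -1.61 ± 0.27 SE.

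Iron and phosphate genes gave 12 negative departures and 1 positive one among 27, with a median of -0.47. The shares were 44.4% and 3.70%, against 15.1% and 12.3% of all genes. The median difference from BY4741 was -0.15 in the double mutant, 0.22 in delta-pbf1 and 0.18 in delta-pbf2, and the double mutant was called higher than BY4741 for 6 of the genes and lower for 9. FIT3, a cell wall mannoprotein for siderophore retention, had 1934, 1614 and 2627 in the double mutant, 4508, 4560 and 4137 in delta-pbf1, 4032, 4110 and 4616 in delta-pbf2, and 3530, 2950 and 2737 in BY4741. Both singles lay above BY4741 and the double mutant below it, without overlap, and the departure was -1.60 ± 0.33 SE (adjusted p = 0.00147). FIT1 departed by -1.57 and ARN2, a siderophore transporter, by -1.13. CTH1, which encodes an mRNA-binding protein of iron metabolism, was the positive member at 1.08, and there the double mutant overlapped with BY4741 while delta-pbf2 was lowest.

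All 7 listed a-cell genes had negative departures in value and 6 of them passed, with a median of -1.07. BAR1, the secreted protease that cleaves alpha factor, had 392, 302 and 261 in the double mutant, 684, 684 and 451 in delta-pbf1, 1172, 944 and 829 in delta-pbf2, and 909, 683 and 456 in BY4741. All double mutant arrays were below the others, while the singles overlapped with BY4741 (departure -1.49 ± 0.28 SE, adjusted p = 6.29e-04). AGA2 departed by -1.5 and MFA1 by -1.13, and MFA2 at -0.62 did not pass (adjusted p = 0.0967). The drop was not limited to a-cell genes. All 4 listed alpha-cell genes also had negative departures in value, with a median of -0.28, and 0 passed. For STE3 and SAG1 all 3 double mutant arrays lay below the other 9, as for 23.8% of all genes. In whole cultures, fewer cells of a kind and less RNA per cell cannot be told apart. The same holds for CTS1 and EGT2, genes of cell separation that are expressed in daughter cells, which departed by -1.69 and -1.12. Of 40 listed cell cycle genes 4 were positive (10%) and 6 negative (15%), near the 12.3% and 15.1% of all genes. PCL1, a G1 cyclin, had 43.2, 39.5 and 40.1 in the double mutant, 136, 173 and 172 in delta-pbf1, 122, 129 and 133 in delta-pbf2, and 207, 252 and 217 in BY4741. There both singles lay below BY4741 and the double mutant lower still (departure -1.16 ± 0.19 SE).

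The low-affinity glucose transporters were also low in the double mutant. HXT1 had 285, 239 and 183 in the double mutant, 553, 418 and 561 in delta-pbf1, 691, 660 and 709 in delta-pbf2, and 819, 741 and 919 in BY4741. The 4 strains did not overlap, and the departure was -0.86 ± 0.20 SE (adjusted p = 0.00328). HXT3 departed by -0.99, and these were the 2 negative members of 20 (10%, against 15.1% of all genes). HXK2, the main hexokinase, was the positive one at 0.46 (5%, against 12.3%). Of 13 arginine genes, ARG1 and ARG3 of the synthesis pathway departed by -1.02 and -0.93, ARG8 by 0.67 and CAR1, the arginase, by 0.88. These were the 2 negative and 2 positive members, 15.4% each, near the 15.1% and 12.3% of all genes, so the list as a whole did not stand out. CAR1 had 9686, 10529 and 13515 in the double mutant, 5757, 5751 and 5308 in delta-pbf1, 5539, 5182 and 4927 in delta-pbf2, and 4775, 4904 and 4757 in BY4741.

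**Figure D4:**
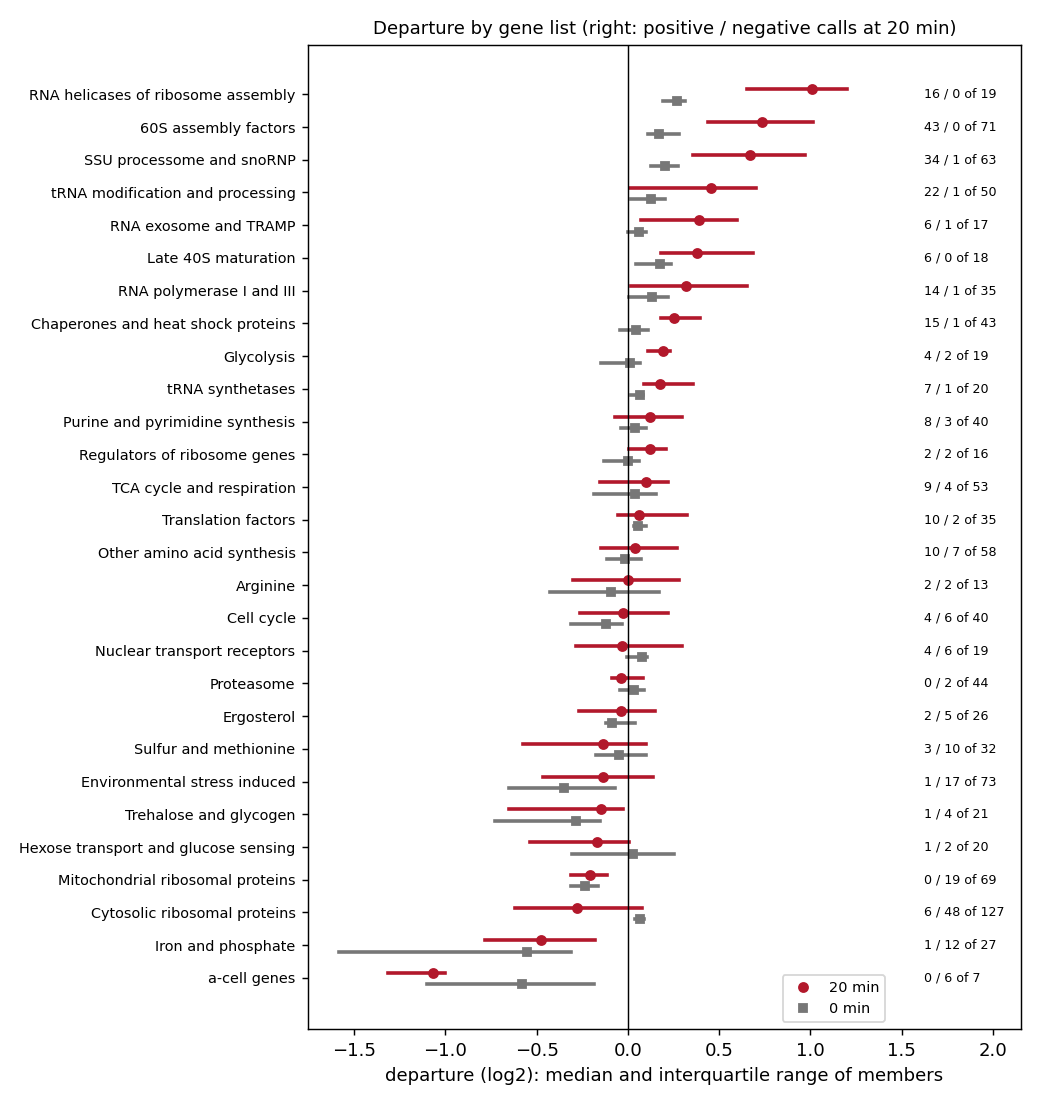
Departure of the double mutant from the sum of the singles for 28 gene lists, ordered by the median at 20 min; circles and red lines give the median and interquartile range at 20 min, squares and grey lines those at 0 min, and the numbers at the right count positive and negative calls at 20 min over the genes tested. RNA helicases, 60S factors and the small subunit processome stand at the top with medians at 0 min no higher than 0.27, late 40S factors lie below tRNA modification and the exosome, and iron and phosphate genes and a-cell genes stand at the bottom at both times.

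Several of the largest departures lay in genes of no list. JJJ3, a J-protein gene of diphthamide synthesis on elongation factor 2, had the largest positive departure of the genes that passed apart from URA3, with 973, 1123 and 1459 in the double mutant, 265, 210 and 314 in delta-pbf1, 234, 212 and 252 in delta-pbf2, and 191, 203 and 269 in BY4741. The other strains overlapped and the double mutant was 4.23 times the 276 given by the singles (departure 2.08 ± 0.23 SE, adjusted p = 2.59e-06). SYF2, a splicing factor gene, departed by 1.5 ± 0.15 SE, SMC3, a cohesin subunit, by 1.52 ± 0.26 SE and DPB2, a subunit of DNA polymerase epsilon, by 1.59 ± 0.35 SE. ATG41, an autophagy gene, at 1.78, HLR1 at 1.59 and COS12 at 2.05 were not called different between the double mutant and BY4741. HLR1 and COS12 were called lower in delta-pbf2 than in BY4741, by -0.83 and -1.51. COS12 departed already at 0 min, by 1.86 (adjusted p = 0.00656 in limma), and its difference between the times, 0.19, did not pass. COS12 belongs to a family of near-identical subtelomeric genes, and YDR124W, at 2.00, was dim, so both are uncertain.

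Other genes of no list had large negative departures. OSW2, a spore wall gene, departed by -1.73 ± 0.51 SE. The neighbouring reading frames YMR084W and YMR085W departed by -1.91 and -1.82, and since they adjoin, they may not be independent. YBR184W departed by -1.80 and YGR174W-A by -1.67, and YBR184W was dim, with 7.84, 5.88 and 12.7 in the double mutant.

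The same contrast at 0 min tells how much of this was present before the shift, on 12 arrays that the 20 min contrast does not use, from parts of the same cultures. At 0 min 42 genes had a positive departure (0.778%) and 122 a negative one (2.26%). No gene of the 171 assembly genes was called at 0 min in either direction, and their median departure was 0.19 at 0 min and 0.68 at 20 min. All 3 double mutant arrays at 0 min were nevertheless above the other 9 for 73 of the 171, against 7.73% of all genes, and below them for 0, against 10.5%. KRR1 departed by 0.13 at 0 min (adjusted p = 0.709) and FAF1 by 0.25 (adjusted p = 0.556). Of the 661 positive genes at 20 min 28 were positive at 0 min, which is 4.24% of the 661 and 66.7% of the 42. Of the 816 negative genes 61 were negative at 0 min, which is 7.48% of them and 50% of the 122. Across all 5395 genes the departures at 20 and 0 min had a Pearson r of 0.443, given as a description, since genes are not independent and the cultures are shared.

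The difference between the departures at 20 and 0 min was itself tested. It was positive for 128 genes (2.37%) and negative for 100 (1.85%). Of the assembly genes 22 of 171 passed, all upward, with a median difference of 0.51. KRR1 had a difference of 1.53 (adjusted p = 9.54e-06), FAF1 1.58 (adjusted p = 2.87e-04) and URA7 1.63 (adjusted p = 0.00458). Of the cytosolic ribosomal protein genes 15 of 127 passed, all downward, and their median departure was 0.07 at 0 min. ALD3 had a difference of -2.43 (adjusted p = 0.00134), GND2 -1.64 (adjusted p = 3.15e-04) and MET2 -1.79 (adjusted p = 0.0293). The iron and phosphate list had 10 of 27 genes with a negative departure at 0 min and no member with a negative difference, and the stress list had 9 of 73 negative at 0 min with a median of -0.35. The counts of this difference depend on single arrays: without replicate 2 of delta-pbf1 at 20 min they were 67 positive and 47 negative. They depend more on the scaling, with 5 positive and 3 negative after hybridization control centring and 0 and 0 after spike-in centring.

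Some of the largest differences came from 0 min. MDH2, a cytosolic malate dehydrogenase, averaged 273 in the double mutant, 1612 in delta-pbf1, 1390 in delta-pbf2 and 1535 in BY4741 at 0 min, a departure of -2.42 (adjusted p = 5.18e-08). At 20 min the 4 strains overlapped between 613 and 1008, and the departure was 0.03. URA1, the dihydroorotate dehydrogenase, averaged 2741 in the double mutant, 8052 in delta-pbf1, 6650 in delta-pbf2 and 7565 in BY4741 at 0 min (departure -1.37, adjusted p = 2.67e-06), and departed by 0.55 at 20 min. URA1 acts ahead of URA3, the marker found only in the double mutant, and the part of the marker was not tested. YGP1, SPI1 and YRO2, genes induced by stress, also departed downward at 0 min, by -2.12, -1.70 and -1.73, and not at 20 min, by -0.24, 0.18 and 0.10. Upward at 0 min were ERO1 and SIL1, of protein folding in the endoplasmic reticulum, at 1.20 and 1.33, COS12 at 1.86, ARO10 at 1.68 and ADD37 at 1.09. FIT1 and CIS1 departed at 0 min by -2.34 and -2.27. LSO1 departed by -2.53, with 1 of 3 double mutant arrays above background, and FIG1 had none above background there, so that no size is given.

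**Figure D5:**
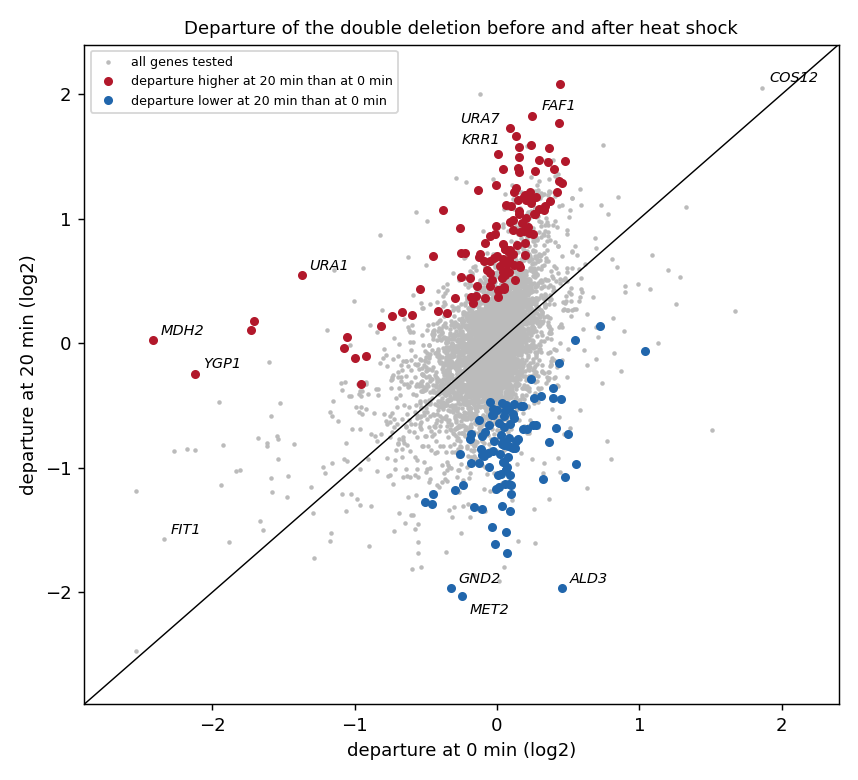
Departure of each gene at 0 min (x axis) and at 20 min (y axis), both in log2 units, with the line of equal departures. Coloured points passed the test of the difference between times; red points above the line include assembly genes near 0 on the x axis and genes such as MDH2 that departed at 0 min, blue points lie below the line, and genes at background in any group are not drawn.

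Position and length were compared as features that the contrast does not use. Some assembly genes share an upstream region with a divergent neighbour, and 48 divergent partners outside the assembly lists belong to the 99 positive assembly genes. Of these 48 partners 12 had a positive departure (25.0%) and 1 a negative one, against 338 of 2675 (12.6%) of all genes in divergent pairs outside the lists. The 12 include RPC25 and RPC37 of polymerase III, GCD10 of tRNA methylation and the translation factor gene TEF4. Genes of these kinds also held more positive than negative departures, so the part of the neighbour was not tested. Of 27 partners of the remaining assembly genes 5 were positive (18.5%). Over 16 chromosomes the median departure lay between -0.11 and 0.01, the share of positive genes between 6.90% and 15.3% and that of negative genes between 9.66% and 18.8%. The median gene length was 1185 bases for positive, 1287 for negative and 1248 for the other genes. In the authors' deposited table of ratios, the departure of the heat shock response, which corresponds to the difference between the times, had a median of 0.52 over the 171 assembly genes and -0.36 over the 127 cytosolic ribosomal protein genes.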

How the data were processed

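The values are signal intensities of Affymetrix Yeast 2.0 arrays, which the authors extracted with GeneChip Operating Software 1.4 and summarised with MAS5, per the deposited read-me and the submitters' processing notes; the values show a 2% trimmed mean near the same level on every array. The authors also deposited log2 ratios of 20 min over 0 min for each strain, made with the GoldenSpike method per the deposited read-me, with replicates combined; 4 false discovery rate columns were not used.

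Of 10928 probe sets, 7244 carried 1 gene symbol in the platform annotation, and 5498 of these matched the RefSeq gene table of Saccharomyces cerevisiae, for 5449 genes (the brightest probe set for 47 genes with several). The other 1746 measured the background: 54 genes with a mean signal under 5.09 were left out, and a signal was called above background over the 95th percentile of those probe sets on its array. The remaining 5395 genes were fitted with limma 3.58.1 (R 4.3.3) on log2 signals as 8 group means over all 24 arrays, with eBayes and an intensity trend, two-sided, Benjamini-Hochberg adjustment over all genes and a threshold of 0.05. Adjusted p-values throughout come from that fit. The scripts were tested on simulated data.

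Named genes were the 15 largest departures each way at 20 min, the 5 largest each way at 0 min and for the difference between times, and in each list the 3 largest each way and the largest that did not pass, with TOD6, DOT6 and URA3. The text does not print every gene that this rule names, and a result of one of them is not reported here. The members and the 31 gene lists were chosen with earlier results of these data known. Lists are described by counts and medians beside all genes, without a set test; 15 list symbols had no probe set. Alternatives were 4 other scalings, the linear scale, an offset of 16, other filters and spreads, a replicate or culture block, the arrays of 1 time alone and each array left out. Promoter sequences were not analysed here.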

Additional observations from a re-analysis of the deposited data

Results flagged for a closer look

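Each value here is the departure at 20 min minus the departure at 0 min on the log2 scale, for results where limma's test of that difference passed. The difference was positive for 128 genes and negative for 100. These counts were 5 and 3 with hybridization control centring and 0 and 0 with spike-in centring. Among ribosome assembly genes it was 1.53 for KRR1, 1.58 for FAF1, 1.20 for ENP2, 1.43 for LTV1, 1.35 for DIM1, 0.77 for TSR4, 1.33 for RRP1, 1.36 for REA1, 1.18 for YVH1 and 1.22 for ECM16. In polymerase III, the exosome and tRNA genes it was 0.66 for RET1, 1.1 for RPC82, 1.28 for LRP1, -0.83 for PAP2, 0.90 for LHP1, 0.52 for MES1 and 0.58 for THS1. Transport genes gave 0.41 for GSP1, 0.66 for KAP123, -0.84 for LOS1 and -0.64 for KAP120.

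In metabolism the difference was 1.63 for URA7, 0.88 for GUA1, 1.92 for URA1, 0.61 for PGM1, 0.51 for HXK2, -0.94 for HXT3, -0.55 for LSC1 and 2.44 for MDH2. Amino acid genes gave 0.60 for HOM3, 0.71 for ARO7, 0.61 for THR1, 0.66 for TRP2, -1.79 for MET2, -1.76 for MET28 and -1.60 for MHT1. Sterol genes gave 0.42 for IDI1, 0.58 for MVD1 and -0.62 for HMG1. Stress and chaperone genes gave -1.64 for GND2, -2.43 for ALD3, 1.83 for YRO2, 1.88 for YGP1, 1.88 for SPI1 and 0.99 for CNS1. Other genes were JJJ3 at 1.64, SYF2 at 1.35, SMC3 at 1.51, MSH6 at 1.37, PCL1 at -1.17, ECM29 at -0.58 and YMR230W-A at -1.74, whose double mutant arrays were not above background at 20 min. TRP2 is also a neighbour of a deleted gene on its chromosome.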

How the results depend on the processing

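The scaling of the arrays was the choice that moved the most results; the cause of each change was not tested. Of the 1477 genes called at 20 min, 1476 were also called with the replicate block, 1433 with median centring, 1340 with quantile normalization, 1229 on the linear scale, 1141 with the 12 arrays of 20 min alone, 633 with hybridization control centring and 1 with spike-in centring, and none was called in the opposite direction under these settings. With hybridization control centring 217 and 427 genes were positive and negative at 20 min, 16 and 59 at 0 min, and 5 and 3 for the difference between times; with spike-in centring the counts were 1 and 0, 2 and 0, and 0 and 0, with 160, 54 and 24 genes at an unadjusted p under 0.05 in limma. With 1 array left out the counts at 20 min ranged from 521 to 691 positive and from 620 to 826 negative, those at 0 min from 32 to 42 and from 74 (without replicate 3 of delta-pbf2) to 176, and those of the difference from 67 to 178 and from 47 to 140. The low counts of the difference came without replicate 2 of delta-pbf1 at 20 min, and its negative count was also 61 without replicate 3 of delta-pbf1 at 0 min and 57 and 54 without replicates 2 and 3 of delta-pbf2 at 20 min. The negative count at 0 min was 63 under quantile normalization and 33 on the linear scale, where 152 genes had a negative difference. The deviations of the 20 min arrays from the mean of their group were compared between strains. Arrays with the same replicate number had deviations that correlated above 0.1 in 16 of 18 pairs, with r from 0.0314 to 0.646. In 16 of 18 the best match had the same number, a hint of pairing in the data. Since not every pair passed 0.1 and the labels give no shared batch, the block was kept as an alternative. With the replicate block 795 genes were positive and 984 negative at 20 min, 185 were negative at 0 min, and the difference was positive for 233 and negative for 169; 128 of 171 assembly genes, 11 of 18 late 40S genes and 20 of 43 chaperone genes were then positive, and 7 of 7 a-cell genes negative, MFA2 included (adjusted p = 0.0323 in limma).

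For the double mutant against BY4741, spike-in centring gave 286 higher and 46 lower, and hybridization control centring 977 lower. For delta-pbf1 against BY4741 quantile normalization gave 46 higher and 39 lower, median centring 23 higher, hybridization control centring 1 higher and 2 lower, and spike-in centring 0 higher and 1 lower. For delta-pbf2 against BY4741 quantile normalization gave 409 lower, median centring 439 lower, hybridization control centring 236 higher and 18 lower, and spike-in centring 0 higher and 1 lower. The double mutant against delta-pbf1 gave 195 higher and 19 lower with spike-in centring and 848 lower with hybridization control centring; against delta-pbf2 it gave 138 higher and 35 lower, and 708 higher. With spike-in centring 241 genes had the double mutant arrays below all others. Among list medians, spike-in centring turned nuclear transport to 0.11, stress genes to 0.0072, the proteasome to 0.11, sulfur genes to 0.0073, ergosterol to 0.11 and cell cycle genes to 0.12, and gave -0.13 for cytosolic ribosomal proteins. Quantile normalization turned glycolysis to -0.037 and ergosterol to 0.0087, and the linear scale cell cycle genes to 5.97 signal units. Other medians that changed sign, by less than the spread between replicates, were cell cycle genes at 0.019 under quantile normalization, trehalose genes at 0.00074 with spike-in centring, arginine genes at -0.0043 with median centring, and, with hybridization control centring, arginine genes at -0.065, translation factors at -0.0064, other amino acid genes at -0.026 and neighbours at -0.029. With 1 array left out nuclear transport ranged from -0.15 to 0.049, with 0.023 and 0.020 in between, the proteasome from -0.046 to 0.0019, late 40S factors from 0.24 to 0.54 and cytosolic ribosomal proteins from -0.38 to -0.18.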

Other observations

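Mitochondrial ribosomal protein genes, which serve translation inside the organelle, gave 19 negative departures and 0 positive ones among 69 at 20 min, with a median of -0.21, and 5 negative ones at 0 min with a median of -0.23. RSM10 had 684, 692 and 845 in the double mutant, 1337, 1115 and 1161 in delta-pbf1, 1217, 1263 and 1429 in delta-pbf2, and 1449, 1232 and 1130 in BY4741. The double mutant was below all other arrays, and the departure was -0.75 ± 0.13 SE. With hybridization control centring 2 of the 69 were negative.

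Respiratory and TCA cycle genes numbered 53, of which 9 were positive and 4 negative (17.0% and 7.55%, against 12.3% and 15.1% of all genes). QCR9 and COX9, of respiratory complexes, departed by 0.70 and 0.57, and NDE2, an external NADH dehydrogenase, by -1.38. In glycolysis and fermentation 4 of 19 were positive and 2 negative (21.1% and 10.5%). PDC6, a minor pyruvate decarboxylase, departed by -1.44 and GPM2 by -0.81, with the double mutant below all other arrays in both. Ergosterol genes gave 2 positive and 5 negative of 26 (7.69% and 19.2%). MVD1 and IDI1 departed by 0.67 and 0.43, and ERG28, HMG2 and HMG1 by -0.86, -0.72 and -0.71.

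Trehalose and glycogen genes gave 1 positive and 4 negative of 21 (4.76% and 19.0%, against 12.3% and 15.1% of all genes). PGM1, a phosphoglucomutase, departed by 0.81 and GDB1, the glycogen debranching enzyme, by -0.91. Among 58 other amino acid genes 10 were positive and 7 negative (17.2% and 12.1%). THR1, the homoserine kinase, departed by 0.72, and GCV1 and GCV2, of the glycine cleavage system, by -0.74 and -0.69. Proteasome genes gave 0 positive and 2 negative departures of 44 (0% and 4.55%, against 12.3% and 15.1% of all genes). The negative ones were ECM29 at -0.77 and UMP1 at -0.28. RPN4, the activator of proteasome genes, stood at 0.95 and did not pass (adjusted p = 0.0800 in limma). Of 7 genes beside the deleted loci 2 were positive and 2 negative (28.6% each, against 12.3% and 15.1% of all genes). TRP2 departed by 0.59, SBH1 by 0.58, AIM10 by -0.42 and PTC2 by -0.25.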
